A study of Mus musculus with 96 samples.

Results

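Microglia of the brain hemisphere of young mice were compared 48 h after abdominal surgery with microglia of young control mice taken at the same time. The comparison used 8 of the 96 libraries of the series, assigned to their groups by their labels: 4 from young mice after surgery and 4 from young controls. All animals carried the wild-type genotype and were 3 to 5 months old, and the labels give neither a strain nor what the control animals underwent. Each library was made with Smart-seq2, a full-length cDNA method for small inputs, from 1000 sorted cells that carried CD11b and Fcrls and lacked Ly6C. A sort number in the library name, shared by 1 hemisphere and 1 hippocampus library, was taken as the animal, so each group held 4 animals. 3 other sets of libraries served as points of comparison: the hemisphere of young mice 6 h after surgery (4) and of their controls (4), the hemisphere of old mice of 20 to 22 months at 48 h (9 after surgery, 8 controls), and the hippocampus of the same 8 young animals. Libraries of old mice also entered the fits for 6 h and for hippocampus.

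Microglia are the resident macrophages of the brain. They depend on the receptor Csf1r, sense nucleotides released by neighbouring cells through P2ry12, and respond to injury or circulating inflammatory signals by lowering their homeostatic genes and inducing cytokines, chemokines and interferon-stimulated genes. An operation also raises circulating glucocorticoids, which bind the glucocorticoid receptor and switch on genes such as Fkbp5, Tsc22d3 and Per1 in many cell types.

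The libraries held 2351989 to 2885492 counts after surgery, against 2503396 to 3092714 in controls (exact two-sided permutation test, p = 0.543). In both groups 13 gene models, led by Gm26870 and Gm10800, took most of them: 69.98 to 78.3% after surgery and 73.9 to 76.7% in controls (exact permutation p = 0.686). That left 509474 to 793912 counts per library for all other genes after surgery and 591356 to 783180 in controls. Surgery replicate 1 stood apart from the other 7 libraries. Its score on the first principal component, which held 27.8% of the variance, was -74.1, against -9.92 to 21.4 in the other libraries. It was the lowest of the 8 libraries for 24.8% of the genes tested and the highest for 23.1%, while no other library was lowest for more than 12.2% or highest for more than 12.2%. Values without it are given beside a number of the genes and lists that follow.

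No gene passed the threshold 48 h after surgery. Of 12250 genes tested with edgeR's quasi-likelihood test, 0 had a Benjamini-Hochberg adjusted p below 0.05, a background of 0% called. At an unadjusted p below 0.05 there were 440 genes (3.59%), 226 higher (1.84%) and 214 lower (1.75%) after surgery. DESeq2 called 3 genes and limma-voom 0. The median log2 fold change of surgery over control was 0.01 over all genes, and 51.5% of genes had a positive value. How small a difference these 4 against 4 libraries could resolve follows from the 95% intervals of the fold changes. The interval reached a median of 0.79 log2 units to either side, and for 45.1% of genes it lay wholly within a 2-fold change in either direction. Among the 3116 genes with a mean of at least 4 on the log2 CPM scale (CPM, the usual measure of counts scaled to library size, here with TMM scaling), the half-width was 0.57 and the share was 79.4%. For the other genes a change of 2-fold or more in at least 1 direction lay inside the interval.

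Microglial identity genes were abundant in all 8 libraries. P2ry12, the purinergic receptor that guides microglial processes, had 390, 607, 553 and 704 CPM after surgery, against 659, 596, 673 and 536 CPM in controls. Its log2 fold change was -0.13 (95% interval -0.57 to 0.31). Tmem119, a membrane protein used to mark microglia, had 421, 693, 626 and 771 CPM after surgery and 721, 776, 773 and 670 CPM in controls, a log2 fold change of -0.23 (-0.62 to 0.17). For both genes the lowest value was that of surgery replicate 1, and the groups overlapped. The fractalkine receptor gene Cx3cr1, which receives a signal from neurons, had 830, 1348, 1173 and 1522 CPM after surgery, against 1425, 1272, 1616 and 1078 CPM in controls (log2 fold change -0.15, -0.54 to 0.25). Siglech and Sall1, a lectin receptor and a transcription factor that maintains microglial identity, had log2 fold changes of 0.03 and -0.06.

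Of the 18 homeostatic genes, all tested, 0 passed the threshold in either direction, and 15 had a negative fold change with a median of -0.14. Surgery replicate 1 was the lowest of the 8 libraries for 15 of the 18. Without it 9 of 18 had a positive fold change and the median was 0.00. The summed level of 8 microglial markers was 3678 CPM in surgery replicate 1, and 5204 to 6633 CPM in the other surgery libraries, against 5050 to 6654 CPM in controls. In bulk libraries such as these, fewer cells of a type and less RNA per cell cannot be told apart.

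Among genes with a mean of at least 4 log2 CPM, the 10 with the smallest unadjusted p in each direction are described next. Each had an adjusted p of 1 in edgeR's quasi-likelihood test, so none is a changed gene at the threshold used. Their values are shown as those of the genes that separated the groups most.

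On the higher side, Lpp, a scaffold protein of cell adhesion sites, had the smallest p. It lies on chromosome 16 (24393507 to 24992578, plus strand, mm10). It had 56.4, 36.8, 45.7 and 30.7 CPM after surgery, against 21.3, 14.1, 20.0 and 17.5 CPM in controls. All 4 surgery libraries lay above all 4 controls, with a log2 fold change of 1.22 (0.61 to 1.83, unadjusted p = 0.00033). In old hemisphere at 48 h the log2 fold change of Lpp was 0.11, in young hemisphere at 6 h it was -0.34 and in young hippocampus at 48 h -0.34. Pou2f2, which encodes the transcription factor Oct-2, had 29.6, 26.4, 15.6 and 22.1 CPM after surgery and 10.2, 13.7, 14.0 and 12.4 CPM in controls (log2 fold change 0.90, 0.42 to 1.37). Here too the groups did not overlap, though surgery replicate 3 lay within 2 CPM of the highest control. Man1a2, a mannosidase that trims N-glycans in the Golgi, had 96.7, 24.98, 35.5 and 105.5 CPM after surgery, against 14.2, 18.1, 15.3 and 25.8 CPM in controls (log2 fold change 1.83, unadjusted p = 0.0016). Its difference lay mainly in surgery replicates 1 and 4.

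The other genes on that side were Rps12 (log2 fold change 1.67), Cic (0.93), Aldh16a1 (0.87), Ap1g1 (0.81), Taf1d (0.72), Reep3 (0.61) and Tacc1 (0.60). Aldh16a1 belongs to the aldehyde dehydrogenases, Taf1d is a subunit of the RNA polymerase I selectivity factor, Reep3 shapes the endoplasmic reticulum and Tacc1 is a coiled-coil protein of the centrosome. Cic is a transcriptional repressor downstream of receptor tyrosine kinases, and Ap1g1 a subunit of the AP-1 adaptor that loads clathrin vesicles at the trans-Golgi network. Rps12, a ribosomal protein gene, has processed copies elsewhere in the genome, so its count depends on how reads with several matches were treated, a step not given in the sources used here. For Lpp, Pou2f2, Aldh16a1, Ap1g1 and Cic every surgery library was above every control. That pattern held for 131 of the 12250 genes tested (1.07%).

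On the lower side, Lgals3bp, a secreted glycoprotein that binds galectins, had the smallest p. It lies on chromosome 11 (118392751 to 118402092, minus strand). Its levels were 18.7, 31.2, 26.2 and 25.1 CPM after surgery, against 50.8, 72.2, 75.7 and 47.1 CPM in controls, and the groups did not overlap (log2 fold change -1.28, -1.94 to -0.62, unadjusted p = 0.00047). In old hemisphere the log2 fold change was 0.28 and in young hippocampus -0.63. Stat3, the transcription factor downstream of interleukin-6 type cytokines, had 18.4, 24.3, 22.8 and 23.9 CPM after surgery and 22.5, 31.8, 45.9 and 37.6 CPM in controls. Its log2 fold change was -0.62 (-1.05 to -0.20, unadjusted p = 0.0054), and 1 control lay within the surgery range. Slc23a2, a vitamin C transporter, had 10.3, 15.3, 15.6 and 23.2 CPM after surgery, against 26.4, 76.7, 25.5 and 55.7 CPM in controls (log2 fold change -1.52, -2.47 to -0.57).

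The remaining genes on the lower side were Enpp2 (log2 fold change -5.75), Rad54l (-2.52), Kpna4 (-1.65), Tgfa (-0.91), Cpsf1 (-0.88), Synj1 (-0.84) and Arid5a (-0.78). Rad54l serves homologous recombination, Kpna4 is an importin, and Arid5a binds and stabilises cytokine mRNAs. Cpsf1 is a subunit of the complex that cleaves and polyadenylates pre-mRNA, and Synj1 a phosphoinositide phosphatase of vesicle recycling. For Lgals3bp, Slc23a2, Synj1, Cpsf1 and Enpp2 every surgery library was below every control, a pattern held by 126 of the genes tested (1.03%). Tgfa, a ligand of the EGF receptor, rested on control replicate 1, with 58.7 CPM against 14.5 to 22.2 CPM in the other controls and 12.9 to 18.0 CPM after surgery.

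**Figure D1:**
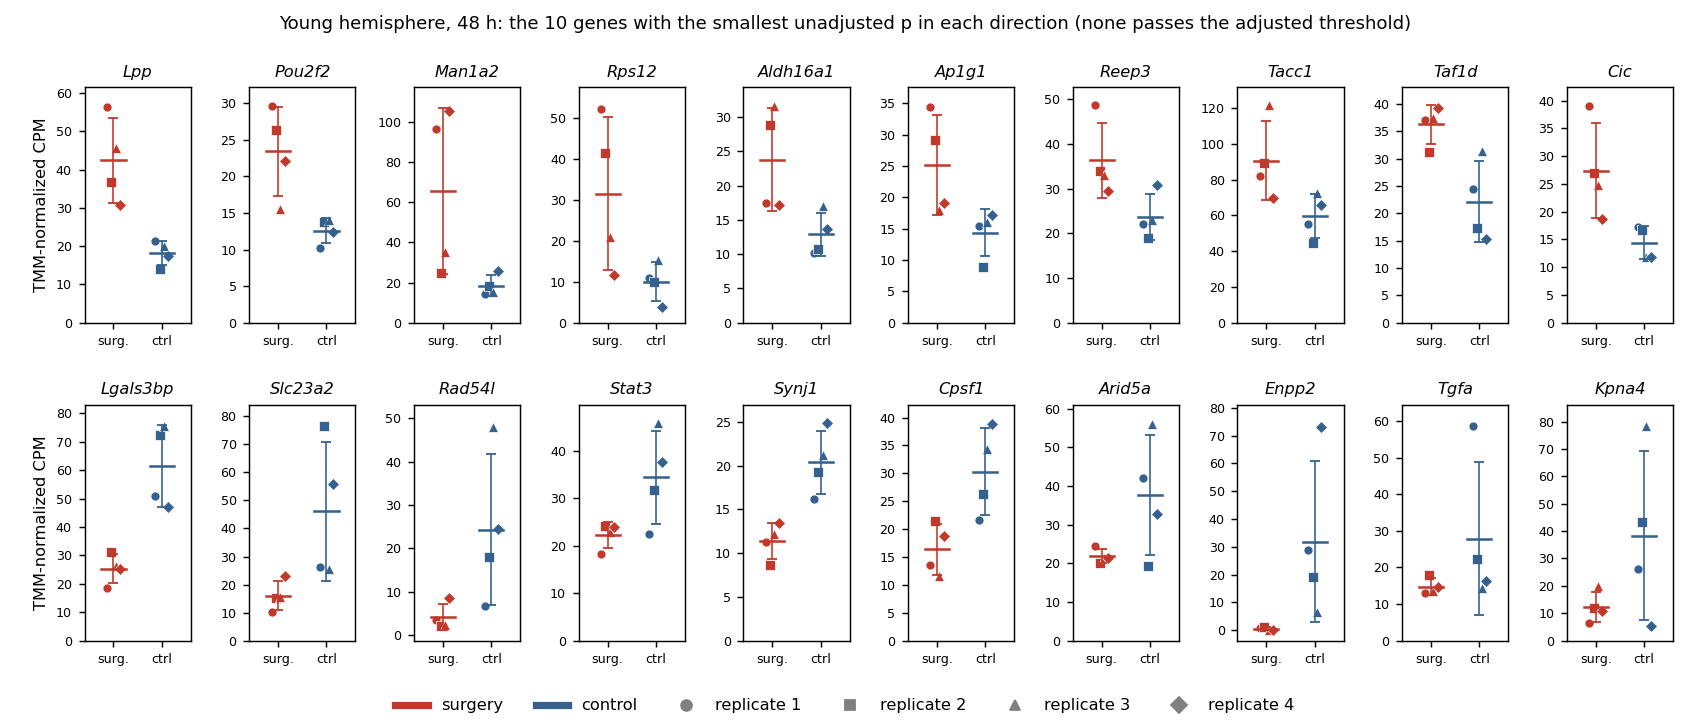
Level of the genes with the smallest unadjusted p in each direction, among genes with a mean of at least 4 log2 CPM, as TMM-normalized CPM on linear axes, with 1 point per library and mean ± SD for surgery (left) and control (right) young hemisphere at 48 h. All 4 surgery libraries lay above the controls for Lpp, with 30.7 to 56.4 CPM against 14.1 to 21.3 CPM, and below them for Lgals3bp, with 18.7 to 31.2 CPM against 47.1 to 75.7 CPM.

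3 genes below that expression limit, Faf1, Lyrm9 and Dock1, are named because their p was among the smallest over all genes, and they were picked after their values were seen. Faf1, an adaptor of Fas signalling and of ubiquitin-dependent protein turnover, had the smallest p of all 12250 genes. It had 2.58, 2.08, 2.43 and 1.87 CPM after surgery, against 3.15, 22.6, 29.3 and 2.87 CPM in controls (log2 fold change -2.66, -3.80 to -1.52, adjusted p = 0.623 in edgeR's quasi-likelihood test). Control replicates 2 and 3 carried that difference, and the other controls lay close to the surgery libraries. Lyrm9 had 1.93, 5.20, 5.35 and 10.1 CPM after surgery and 32.3, 7.04, 30.2 and 71.96 CPM in controls (log2 fold change -2.65, adjusted p = 0.891 in the same test). Dock1, an activator of the GTPase Rac in engulfment of dying cells, had 24.5, 15.3, 16.5 and 16.5 CPM after surgery, against 10.6, 6.30, 9.35 and 7.005 CPM in controls (log2 fold change 1.13, 0.54 to 1.73).

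Gclm, the modifier subunit of the enzyme that starts glutathione synthesis, was near 3 CPM in most libraries and far higher in a few. It had 4.19, 1.39, 2.43 and 2.99 CPM after surgery, against 2.76, 33.7, 120 and 2.55 CPM in controls, so the log2 fold change of -3.81 (-5.70 to -1.92) rested on control replicates 2 and 3. At 6 h it was the surgery group that held the high libraries, with 4.01, 168, 59.7 and 3.73 CPM, against 2.43 to 4.004 CPM in 6 h controls. In the hippocampus at 48 h, 1 control library had 118 CPM and the other 3 had 3.64 to 7.07 CPM, while the surgery libraries had 1.88 to 5.16 CPM. Levels near 100 CPM therefore occurred in single libraries of either group, and Gclm was high in control replicate 3 of the hemisphere (120 CPM) but 3.64 CPM in the hippocampus of that animal.

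Transcripts of other cell types were counted because a sort of this kind can carry them along. Markers of the choroid plexus, the epithelium that makes cerebrospinal fluid, differed most between the groups. Ttr, the thyroxine carrier transthyretin, had 9.99, 3.82, 2.43 and 0 CPM after surgery, against 130, 52.6, 19.6 and 260 CPM in controls (log2 fold change -4.76, -8.55 to -0.97, unadjusted p = 0.016, adjusted p = 1 in edgeR's test). Enpp2, the phospholipase autotaxin, which that epithelium also makes, had 0.967, 1.04, 0 and 0 CPM after surgery, against 28.8, 19.3, 6.38 and 73.2 CPM in controls. The sum of the 6 markers was 18.0, 9.71, 8.26 and 6.36 CPM after surgery, and 167, 81.1, 33.2 and 344 CPM in controls, without overlap. The list's defining markers Clic6 and Kcne2 were at 0 in all 4 surgery libraries and at or below 1.27 CPM in controls, and Kl, the third marker tested, had 4.86 to 6.77 CPM after surgery against 6.38 to 8.92 CPM in controls. In the hippocampus of the same animals Enpp2 had 15.5, 38.4, 8.26 and 156 CPM after surgery and 57.7, 42.01, 111 and 215 CPM in controls, and the groups overlapped. The part that choroid plexus RNA has in the other genes on the lower side was not tested.

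Markers of blood-derived cells overlapped between the groups. Monocyte markers summed to 18.5 to 38.7 CPM after surgery, against 16.2 to 33.1 CPM in controls. Neutrophil markers summed to 108.9 to 184 CPM after surgery and 108 to 185 CPM in controls, with S100a8, Mmp9 and Ly6g at 0 in all 8 libraries. T and NK cell markers summed to 3.89 to 11.3 CPM after surgery, against 2.98 to 5.92 CPM in controls, and Trbc2, Nkg7 and Ncr1 were at 0 throughout. The sum for border-associated macrophages, which line the vessels and meninges, was 103 to 227 CPM after surgery and 128 to 171 CPM in controls. Most of it was Stab1, and Lyve1 was at 0 in all 8 libraries. F13a1, another marker of those cells, had 4.83, 2.08, 1.94 and 0 CPM after surgery, against 0, 0.370, 0 and 0.637 CPM in controls (unadjusted p = 0.010).

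Of the brain's own cells, oligodendrocyte markers summed to 260 to 337 CPM after surgery and 251 to 387 CPM in controls, most of it Trf, the iron carrier transferrin. Mbp, a myelin protein, had 2.26 to 7.28 CPM after surgery, against 6.30 to 11.5 CPM in controls (unadjusted p = 0.017, adjusted p = 1 in edgeR's test). Astrocyte markers summed to 29.6 to 58.0 CPM after surgery and 35.3 to 74.4 CPM in controls, and neuronal markers to 6.80 to 16.4 CPM after surgery, against 3.33 to 7.96 CPM in controls. Endothelial markers gave 7.78 to 17.3 CPM after surgery, against 9.26 to 21.3 CPM in controls. Cdh5, a junction protein of that cell type, had 5.16, 4.51, 0 and 0.374 CPM after surgery and 0, 0.370, 0 and 0 CPM in controls (unadjusted p = 0.016), a difference that rested on 2 surgery libraries. The globin genes Hba-a1, Hba-a2, Hbb-bs and Hbb-bt were at 0 in all 8 libraries.

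**Figure D2:**
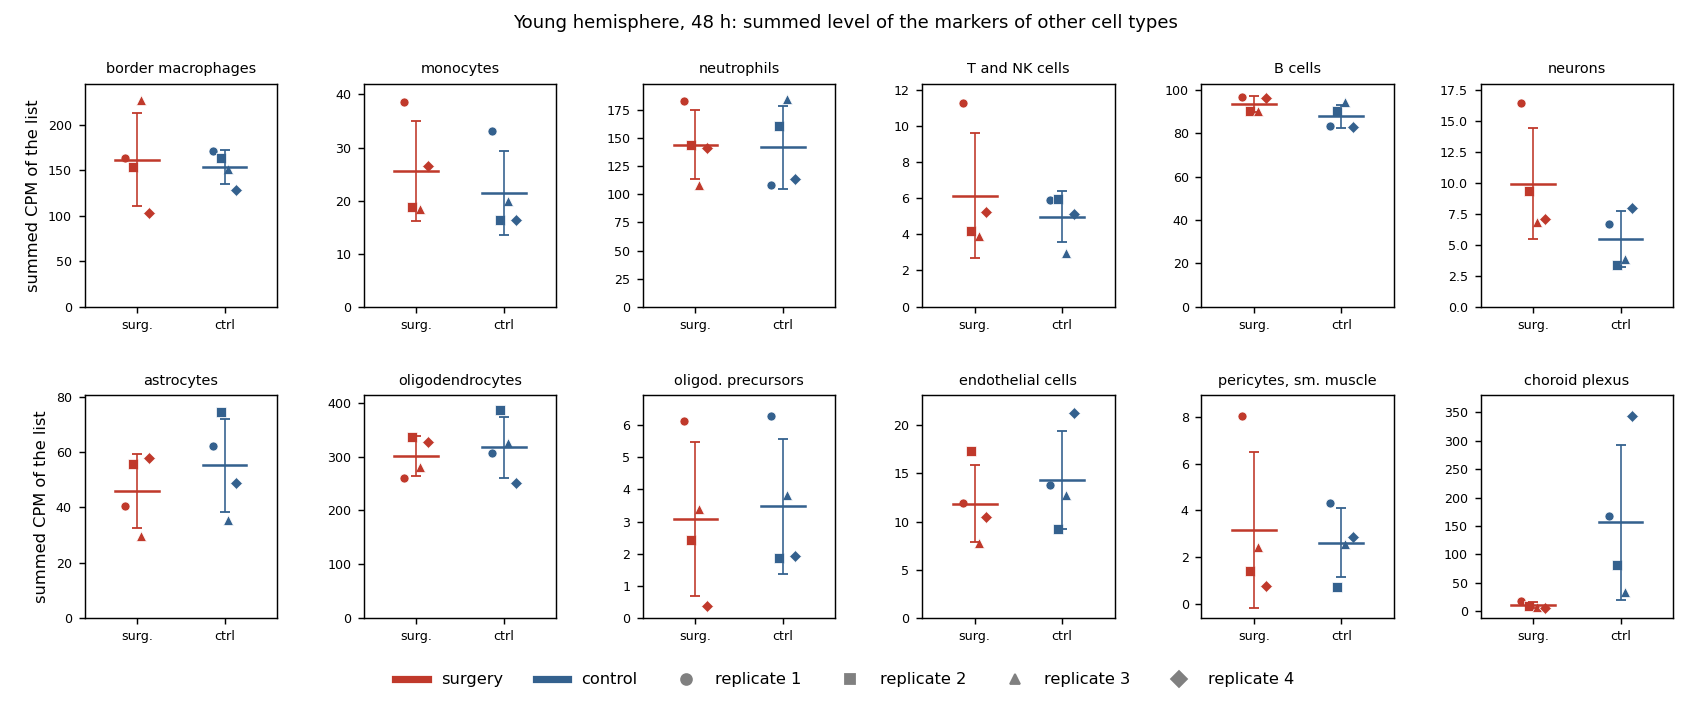
Summed CPM of the marker genes of 12 other cell types, on linear axes, with 1 point per library and mean ± SD for surgery (left) and control (right) young hemisphere at 48 h. Choroid plexus markers ran from 6.36 to 18.0 CPM after surgery, against 33.2 to 344 CPM in controls, while monocyte sums were 18.5 to 38.7 CPM after surgery and 16.2 to 33.1 CPM in controls.

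24 gene lists of microglial and stress programmes were examined, with 389 distinct genes of which 336 were tested. In edgeR's quasi-likelihood test no list had a called member, while DESeq2 called 1, Gclm of the redox list (adjusted p = 0.0497). In edgeR's fit 19 of the 24 medians were negative, between -0.31 and 0.06. Of the 336 genes, 6 had an unadjusted p below 0.05 (Stat3, Skil, Gclm, Txnrd1, Cdk1 and Ccnb1), against 3.59% of all genes tested.

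Levels of inflammatory mediators overlapped between the groups. The 18 cytokine and chemokine genes had 11 tested members, 8 with a positive fold change, and a median of 0.04. Tnf had 9.67, 13.2, 12.1 and 14.6 CPM after surgery, against 15.8, 9.998, 7.65 and 13.7 CPM in controls (log2 fold change 0.07, -0.76 to 0.89). Il1b was too low to test, with 2.26, 0.347, 0.486 and 0 CPM after surgery and 0.394, 0, 0 and 0.637 CPM in controls, where 0.347 CPM is 1 count. Il10 was at 0 in all 8 libraries. The chemokines that draw monocytes, Ccl2 and Ccl12, had log2 fold changes of 0.34 and 0.17, and Ccl3 and Ccl4 had 0.04 and 0.03. Ccl2 ran from 23.2 to 46.2 CPM after surgery, against 16.2 to 31.8 CPM in controls.

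In NF-kB and Toll-like receptor signalling, 10 of 21 tested genes had a positive fold change and the median was -0.03. Nfkbia, the inhibitor that NF-kB itself induces, had a log2 fold change of 0.09. Irak1, a kinase below the interleukin-1 and Toll-like receptors, had 23.5, 19.1, 27.7 and 17.2 CPM after surgery, against 29.6, 18.9, 33.2 and 34.1 CPM in controls (-0.41, -1.02 to 0.21). The list of STAT3 and acute phase genes had 9 tested members and a median of 0.02. Socs3, the feedback inhibitor that STAT3 induces, had 98.9, 157, 92.3 and 127 CPM after surgery and 97.3, 85.2, 107.1 and 92.3 CPM in controls. Its log2 fold change was 0.32 (-0.28 to 0.91), opposite in sign to that of Stat3, with overlapping groups.

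Immediate early genes, which respond within minutes to stimulation and also to tissue handling, had 14 of 20 positive values and a median of 0.05. Fos had 537, 903, 509 and 876 CPM after surgery, against 573, 585, 651 and 692 CPM in controls (log2 fold change 0.18, -0.46 to 0.81), and Jun had a log2 fold change of 0.00. Egr3, a zinc finger factor of the same group, had 12.2, 3.47, 9.72 and 7.85 CPM after surgery, against 1.97, 3.33, 1.70 and 3.18 CPM in controls. All 4 surgery libraries were above all 4 controls, yet the gene did not pass even the unadjusted threshold (log2 fold change 1.67, -0.13 to 3.47, unadjusted p = 0.067).

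Interferon-stimulated genes had 3 of 15 positive values and a median of -0.17, which became -0.46 without surgery replicate 1. Mx1, an antiviral GTPase, had 3.55, 1.73, 2.92 and 3.74 CPM after surgery, against 5.12, 11.8, 4.25 and 2.55 CPM in controls (log2 fold change -0.98, -1.98 to 0.02, unadjusted p = 0.055). Control replicate 2 was the highest library for Mx1, and also for Oasl2, Rtp4 and Ifi27l2a. MHC class I genes had a median of -0.16 over 13 members. H2-D1, a class I heavy chain, had 84.1, 130, 129 and 145 CPM after surgery and 142, 255, 139 and 113 CPM in controls (-0.41, -0.91 to 0.09), and control replicate 2 was again the highest. MHC class II genes had 3 of 10 positive values and a median of -0.26. Cd74, the class II invariant chain, had 9.67, 12.8, 4.37 and 4.49 CPM after surgery, against 3.94, 20.0, 5.95 and 12.4 CPM in controls (-0.42, -1.57 to 0.73).

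Complement and Fc receptor genes had 6 of 14 positive values and a median of -0.04. C1qa, a subunit of the recognition molecule of the classical pathway, had 500, 634, 651 and 601 CPM after surgery, against 590, 744, 661 and 649 CPM in controls (log2 fold change -0.15, -0.48 to 0.18). C4b had 10.6, 1.73, 1.46 and 2.99 CPM after surgery and 0.788, 1.11, 0.425 and 3.82 CPM in controls, and its log2 fold change of 1.399 became 0.36 without surgery replicate 1. C3 was under the filter, with at most 0.967 CPM after surgery and 2.36 CPM in controls.

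The disease-associated microglia list, genes induced near amyloid plaques and in other neurodegenerative settings, had 2 of 16 positive values and a median of -0.21 (3 of 16 and -0.14 without surgery replicate 1). Apoe, the lipid carrier of that list, had 77.99, 138, 137 and 54.98 CPM after surgery, against 59.1, 345, 58.2 and 50.3 CPM in controls. Its log2 fold change of -0.33 (-1.27 to 0.60) carried the sign of control replicate 2, while the other 3 controls lay at or near the low end of the surgery range. Clec7a, the beta-glucan receptor dectin-1, had 1.61, 1.39, 1.94 and 1.496 CPM after surgery and 0.394, 7.41, 1.70 and 0.318 CPM in controls, again with control replicate 2 highest. Cd9 had 71.5 to 130 CPM after surgery, against 97.8 to 177 CPM in controls (-0.29, -0.72 to 0.15).

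Lysosome and phagocytosis genes had negative values in 19 of 21 and a median of -0.18. Surgery replicate 1 was the lowest library for 17 of the 21, and without it 7 of 21 were positive and the median was -0.02. The proteases Ctsb and Ctsd had log2 fold changes of -0.46 and -0.34, and Lamp1, a membrane protein of the lysosome, had -0.42 (-0.99 to 0.16). Lipid efflux and storage genes had a median of -0.07 over 13 members. Cholesterol synthesis genes had a median of -0.18 over 12 members. Fdps, an enzyme of that route, had 1.61, 3.47, 3.89 and 1.87 CPM after surgery, against 3.55, 5.92, 5.53 and 3.82 CPM in controls (log2 fold change -0.81, -1.72 to 0.11).

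Heat shock genes had the lowest median of the 24 lists, -0.31 with 2 of 13 positive, and -0.19 with 4 of 13 positive without surgery replicate 1. Dnaja1, a co-chaperone of Hsp70, had 33.5, 33.3, 32.1 and 36.3 CPM after surgery, against 34.7, 50.4, 56.1 and 67.2 CPM in controls (-0.62, -1.26 to 0.01, unadjusted p = 0.054). The surgery libraries lay close together, below the lowest control except for replicate 4 with 36.3 CPM. Glycolysis and hypoxia genes had a median of -0.23 with 2 of 14 positive. Surgery replicate 1 was the lowest library for 10 of the 14, and without it 5 of 14 were positive and the median was -0.08. The median was -0.13 for oxidative phosphorylation genes with 6 of 18 positive and 0.02 for ribosomal protein genes with 12 of 21 positive. In the redox list, Txnrd1, which regenerates thioredoxin, had 1.61, 1.73, 6.32 and 1.496 CPM after surgery, against 3.94, 11.5, 16.2 and 12.4 CPM in controls (log2 fold change -2.04, unadjusted p = 0.014).

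Genes of cell division had a median of -0.11 over 14 members and split in sign. Cdk1, the kinase that drives mitosis, had 0, 0.694, 0.486 and 0.748 CPM after surgery and 1.97, 0.741, 2.55 and 1.27 CPM in controls (log2 fold change -1.68, unadjusted p = 0.038). Its cyclin partner Ccnb1 had 8.38, 0.347, 2.43 and 2.99 CPM after surgery, against 0.788, 0.370, 0.850 and 1.59 CPM in controls (1.92, unadjusted p = 0.0499). Both were low, with mean counts of 1.25 after surgery and 4.25 in controls for Cdk1, and of 10 and 2.5 for Ccnb1. Without surgery replicate 1 the value for Ccnb1 was 1.00 (unadjusted p = 0.343). Cdkn1a, the inhibitor p21, had a log2 fold change of 0.06 (-0.51 to 0.62). In TGF-beta signalling, the pathway that maintains microglial identity, the median was -0.05 over 14 members. Skil, a co-repressor induced by the pathway, had 33.5, 60.7, 39.8 and 49.4 CPM after surgery and 70.1, 54.8, 93.1 and 56.7 CPM in controls (-0.58, -1.15 to -0.01).

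**Figure D3:**
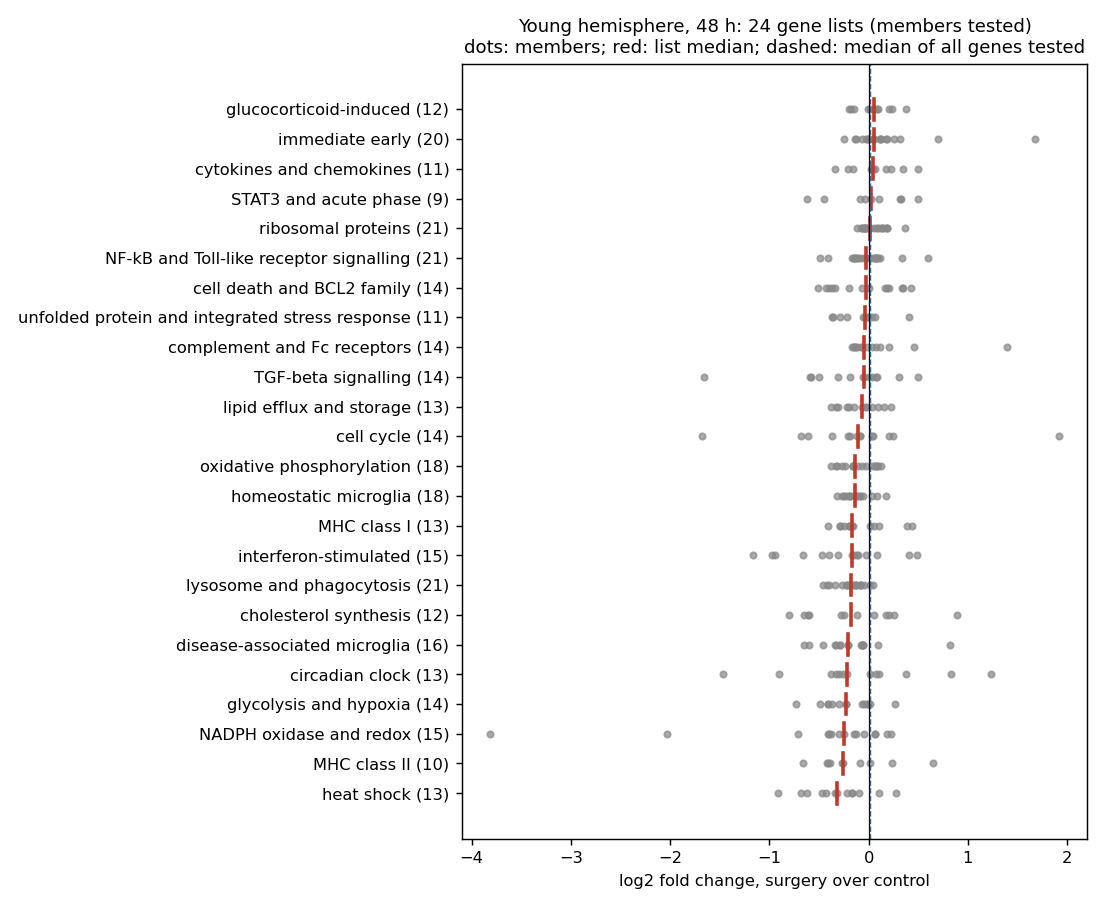
Log2 fold change of surgery over control in young hemisphere at 48 h for every tested member of the 24 gene lists, with 1 point per gene, a red bar at each list's median and the number of members tested in brackets. Medians ran from -0.31 for heat shock to 0.06 for glucocorticoid-induced genes, and 0 of the 336 distinct genes had an adjusted p below 0.05 in edgeR's quasi-likelihood test.

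Glucocorticoid-induced genes were followed from 6 h to 48 h. Their median of 0.06 at 48 h was the highest among the lists, but near that of immediate early genes (0.05) and of all genes tested (0.01). The glucocorticoid receptor binds a palindrome of the half-site AGAACA, and many of its targets, Per1 among them, are also driven by clock factors at the E-box CACGTG. The start regions of 3 members with these letters, chosen after the sequences were seen, run from 250 bases before to 50 after the RefSeq start (GRCm38.p6, the assembly of mm10), with the matches in capitals. They are Fkbp5 at chr17:28486100-28486399 (minus strand, E-box at -169 from the start), Per1 at chr11:69098699-69098998 (plus strand, E-box at -166) and Sgk1 at chr10:21993640-21993939 (plus strand, palindrome at -189 and, further upstream, a half-site at -242 that overlaps an E-box).
Fkbp5: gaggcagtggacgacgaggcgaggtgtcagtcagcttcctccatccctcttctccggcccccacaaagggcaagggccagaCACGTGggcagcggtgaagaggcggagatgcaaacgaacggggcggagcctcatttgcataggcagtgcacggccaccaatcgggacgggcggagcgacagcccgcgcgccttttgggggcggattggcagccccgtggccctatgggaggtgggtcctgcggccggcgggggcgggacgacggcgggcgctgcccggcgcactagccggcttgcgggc
Per1: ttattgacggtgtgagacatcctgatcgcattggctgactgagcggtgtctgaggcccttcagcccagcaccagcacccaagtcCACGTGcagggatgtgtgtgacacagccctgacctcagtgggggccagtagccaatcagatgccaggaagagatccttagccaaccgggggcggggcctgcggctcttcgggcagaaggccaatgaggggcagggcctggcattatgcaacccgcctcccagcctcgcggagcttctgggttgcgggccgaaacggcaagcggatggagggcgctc
Sgk1: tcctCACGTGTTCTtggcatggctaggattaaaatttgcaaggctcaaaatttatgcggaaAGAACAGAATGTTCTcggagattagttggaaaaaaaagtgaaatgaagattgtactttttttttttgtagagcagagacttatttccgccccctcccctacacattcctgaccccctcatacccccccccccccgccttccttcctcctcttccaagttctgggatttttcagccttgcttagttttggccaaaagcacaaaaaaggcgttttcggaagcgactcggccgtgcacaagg
The palindrome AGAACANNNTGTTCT, searched on both strands, was in 3 of 32851 RefSeq mouse start regions of that length (0.00913%), the half-site AGAACA in 19.0% and the E-box in 7.15%. Of the 18 listed glucocorticoid-induced genes, 16 had a start region in the table. Over all start regions of each gene, the palindrome was found in 1 of these 16 genes, Sgk1, the half-site in 4 and the E-box in 4. A gene can have several start regions, as Sgk1 and Per1 do, whereas the percentages are per single region, so these counts and percentages cannot be set against each other. A match describes the letters of the window and is not evidence that a factor binds there.

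8 genes were called in young hemisphere at 6 h among 12760 tested (0.0627%, with 4.42% at an unadjusted p below 0.05), 7 higher (0.0549%) and 1 lower (0.00784%), and they are followed here to 48 h. Tsc22d3, the glucocorticoid-induced leucine zipper, had 28.7, 104, 62.2 and 89.4 CPM 48 h after surgery, against 63.4, 97.0, 55.3 and 65.9 CPM in 48 h controls. Its log2 fold change was 0.01 (-0.67 to 0.70). At 6 h it had 143, 100, 85.9 and 94.4 CPM after surgery and 34.0, 16.8, 27.7 and 31.4 CPM in controls, a log2 fold change of 1.94. The difference of the 2 effects, 48 h minus 6 h, was -1.92 (-2.92 to -0.92, unadjusted p = 0.00034), with an adjusted p of 0.609 in edgeR's test over 14144 genes. The 6 h values by which the gene was called are part of this difference, so the choice favoured a large difference and a small p. Controls at 48 h stood higher than controls at 6 h for this gene, in separately deposited tables, so the smaller effect at 48 h came with levels in the controls that were close to those after surgery.

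Fkbp5, a co-chaperone of the glucocorticoid receptor, had 13.9, 66.3, 10.7 and 32.5 CPM 48 h after surgery, against 16.2, 58.5, 19.1 and 14.0 CPM in controls (log2 fold change 0.20, -0.76 to 1.16). At 6 h it had 87.3, 70.1, 42.1 and 34.3 CPM after surgery and 10.51, 22.7, 16.7 and 30.0 CPM in controls (1.54, adjusted p = 0.0708 in edgeR's test). The gene models AC154912.1 and AC154912.3, which lie within the span of Fkbp5 on chromosome 17, had log2 fold changes of 0.33 and 0.09 at 48 h, against 1.75 and 2.21 at 6 h. AC154912.3 lies on the same strand as Fkbp5, so its reads cannot be told from unspliced Fkbp5 RNA. AC154912.1 lies on the opposite strand, and its reads can be told from Fkbp5 RNA only if the counting used strand, a step not given in the sources used here.

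Ddit4, an inhibitor of the mTORC1 growth pathway, fell below the expression filter at 48 h, with 0.322, 5.20, 1.46 and 3.37 CPM after surgery, against 4.73, 9.26, 1.70 and 0.318 CPM in controls. At 6 h it had 21.4, 8.35, 11.9 and 6.45 CPM after surgery and 0.404, 0.494, 1.00 and 0 CPM in controls (log2 fold change 4.51, adjusted p = 0.0198 in edgeR's test). In the joint fit of both times the difference of effects was -5.11 (-7.51 to -2.71, unadjusted p = 9.2e-05, adjusted p = 0.238). Here too the 6 h values by which the gene was called are part of the difference.

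Mlph, which links melanosomes and other vesicles to myosin, had 23.2, 41.6, 25.3 and 33.3 CPM 48 h after surgery, against 25.6, 43.7, 29.8 and 20.7 CPM in controls (0.05, -0.50 to 0.60, against 1.26 at 6 h). Ccnd3, a cyclin of the G1 phase, had 22.6, 81.2, 36.9 and 63.6 CPM 48 h after surgery and 33.9, 63.3, 45.9 and 34.1 CPM in controls (0.21, -0.57 to 0.98, against 1.19 at 6 h). Sult1a1, a phenol sulfotransferase, had 16.4, 32.6, 12.6 and 19.4 CPM 48 h after surgery, against 18.9, 18.5, 14.5 and 17.2 CPM in controls (0.24, -0.36 to 0.83, against 1.41 at 6 h). Phf6, a chromatin-associated protein and the gene called lower at 6 h, had a log2 fold change of 0.53 (-1.05 to 2.10) at 48 h, against -2.44 at 6 h. At 48 h surgery and control libraries overlapped for all 8 genes.

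Over the 18 listed glucocorticoid-induced genes, 12 were tested at 48 h, 0 were called, 8 had a positive fold change and the median was 0.06. At 6 h 15 were tested, with a median of 0.89. The 2 medians cover different members, as Ddit4 passed the filter at 6 h and not at 48 h. The list was also written with earlier results of these data known, so the 2 medians are not a like-for-like comparison. Per1, the clock gene among the listed genes, had a log2 fold change of 0.38 (-0.53 to 1.29) at 48 h and 1.54 at 6 h. Sgk1, a kinase that the receptor induces, had -0.15 and Dusp1, a phosphatase of MAP kinases, had 0.05. Of the 13 clock genes tested, 6 had a positive and 7 a negative fold change, the median was -0.22 (-0.03 without surgery replicate 1) and 0 were called in edgeR's test. 1 lay wholly higher after surgery and 1 wholly lower, patterns held by 1.07% and 1.03% of all 12250 genes tested. Nr1d1, the repressor REV-ERB alpha, had 4.83, 4.16, 5.83 and 6.36 CPM after surgery, against 3.15, 2.96, 2.13 and 3.503 CPM in controls, without overlap (0.83, -0.07 to 1.72, unadjusted p = 0.069). Ciart, a repressor of the clock named here after its values were seen, had 2.58, 1.39, 0.972 and 2.24 CPM after surgery, against 3.94, 3.33, 3.83 and 2.87 CPM in controls, also without overlap (-0.91, -2.30 to 0.48, unadjusted p = 0.191). Per2, a core clock repressor, had 1.61, 0.694, 1.46 and 14.2 CPM after surgery and 16.9, 30.7, 0.850 and 1.59 CPM in controls (-1.47, -3.27 to 0.34). Its groups overlapped, with 1 high library after surgery and 2 in controls.

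**Figure D4:**
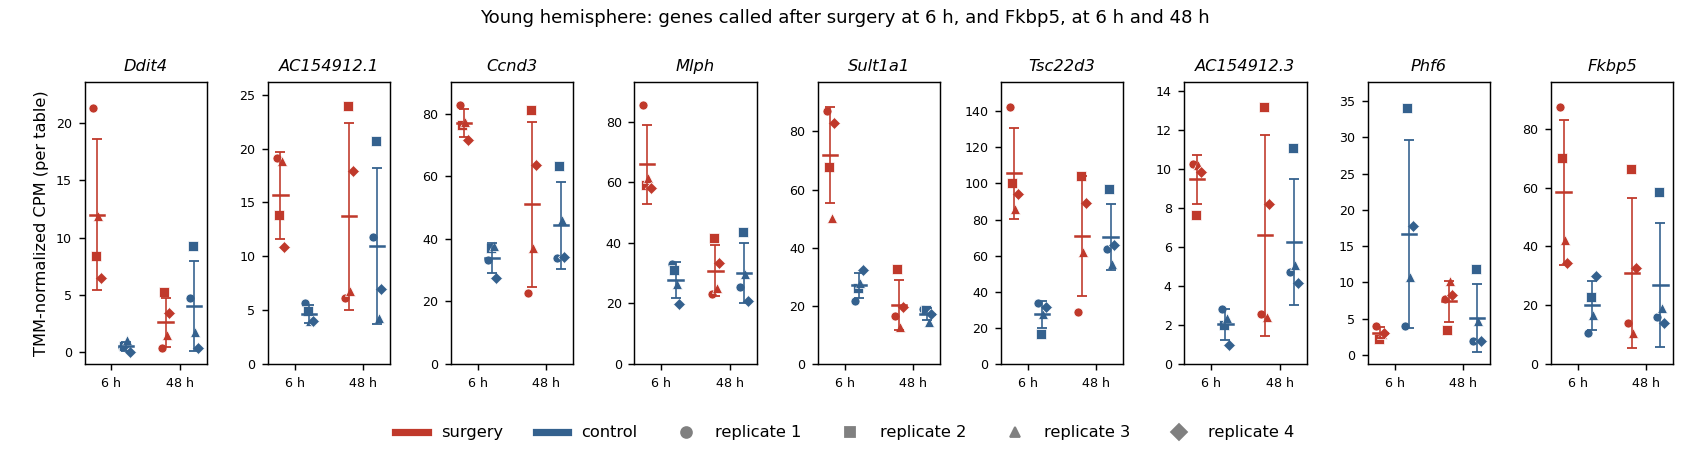
TMM-normalized CPM on linear axes, with 1 point per library and mean ± SD, of the 8 genes called at 6 h and of Fkbp5 in young hemisphere at 6 h and at 48 h, for surgery (left) and control (right), each time normalized within its own table. Tsc22d3 separated at 6 h, with 85.9 to 143 CPM after surgery against 16.8 to 34.0 CPM in controls, and overlapped at 48 h, with 28.7 to 104 CPM after surgery against 55.3 to 97.0 CPM in controls.

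At 48 h the highest values of several of these genes came from the same 2 animals, 1 from each group. Surgery replicate 2 and control replicate 2 held the 2 highest hemisphere values of Fkbp5, Tsc22d3, Per1, Ddit4, Mlph and Dusp1, genes picked after the values were seen. Mlph is not on the list of glucocorticoid-induced genes. Other listed genes went otherwise. Surgery and control replicate 2 ranked 4 and 8 for Cdkn1a, 6 and 5 for Errfi1, 5 and 3 for Tgm2, and 4 and 5 for Rgs2. They ranked 4 and 1 for Mt1, 3 and 1 for Nfkbia, 2 and 3 for Sgk1, and 1 and 4 for Sult1a1. For Fkbp5 these 2 libraries had 66.3 and 58.5 CPM, against 10.7 to 32.5 CPM in the other 6 hemisphere libraries. The hippocampus libraries of the same 2 animals had 36.0 and 37.9 CPM of Fkbp5 and were again the 2 highest of 8. The same held there for Tsc22d3, with 63.997 and 72.7 CPM, and for Ddit4, with 6.59 and 7.84 CPM, but not for Per1, where they ranked 4 and 3, nor for Dusp1, where surgery replicate 2 ranked 3. Both animals carried replicate number 2 by their titles, and the labels name no day or batch that they share.

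**Figure D5:**
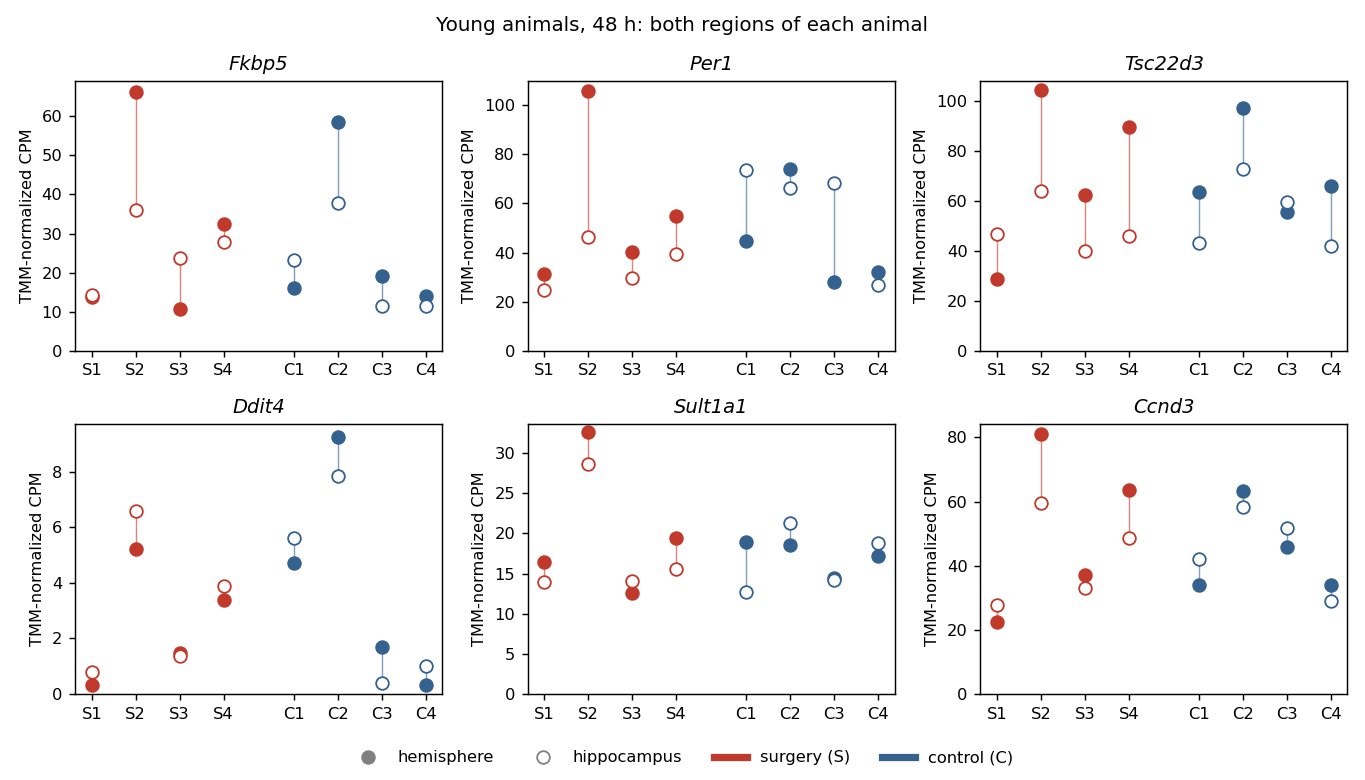
TMM-normalized CPM of Fkbp5, Per1, Tsc22d3, Ddit4, Sult1a1 and Ccnd3 in the hemisphere (filled points) and hippocampus (open points) of each of the 8 young animals at 48 h, surgery animals (S) left of control animals (C), with a line joining the 2 regions of an animal. For Fkbp5 surgery animal 2 (66.3 and 36.0 CPM) and control animal 2 (58.5 and 37.9 CPM) stood above the other 6 animals in both regions.

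Direct tests of how the surgery effect differed between settings made few calls. Between 48 h and 6 h, 1 of 14144 genes was called (0.00707%) and 611 had an unadjusted p below 0.05 (4.32%). That gene was Gclm, with a difference of -7.99 (-10.9 to -5.11, adjusted p = 0.0176 in edgeR's test), and the call was lost in limma-voom, with no filter on low counts, with only young libraries and in 10 of the 16 fits that each left out 1 library. Those were the fits without any 1 of the surgery libraries at 48 h, any 1 of the controls at 6 h, surgery replicate 2 at 6 h or control replicate 3 at 48 h.

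Between young and old hemisphere at 48 h, 0 of 12250 genes were called and 589 had an unadjusted p below 0.05 (4.81%). DESeq2 called 1, Lepr, and limma-voom 0. Stat3 gave opposite signs, with a log2 fold change of -0.62 in young mice and 0.41 in old mice. Old surgery libraries had 26.8 to 42.7 CPM (median 34.96), against 17.5 to 30.0 CPM (median 26.5) in old controls. The young minus old difference for Stat3 was -1.04 (unadjusted p = 0.00028), with an adjusted p of 0.574 in edgeR's test. Stat3 was named for its small p in young mice, whose values are part of this difference. In old hemisphere itself 0 genes were called and 715 had an unadjusted p below 0.05 (5.84%).

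Between hemisphere and hippocampus of the same 8 young animals, 0 of 13473 genes were called, with 470 at an unadjusted p below 0.05 (3.49%). DESeq2 also called 0, and limma-voom called 2, Faf1 and Gm49322. In young hippocampus at 48 h 0 of 11985 genes were called and 733 had an unadjusted p below 0.05 (6.12%). P2ry12 and Tmem119 had log2 fold changes of -0.05 and -0.02 in hippocampus, Tnf had -0.36 and Socs3 had 0.55. The homeostatic list had a median of 0.00 in hippocampus and 0.12 in old hemisphere, against -0.14 in young hemisphere at 48 h. Without surgery replicate 1 the value for young hemisphere at 48 h was 0.00. In young hemisphere at 6 h the median was -0.14.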

How the data were processed

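Estimated counts per gene model, whole numbers, were deposited by the authors as tables per region and time. Per the submitters' processing notes the build was mm10 and R 4.2.1 and DESeq2 1.36.0 were used. For the aligner, the counting tool, the annotation and the use of strand, each was not given in the sources used here. No column of per-sample values was left unused (0).

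Gene identifiers were matched to GENCODE M21 (54409 of 54532, 123 without a match). Counts of the 25 hemisphere libraries at 48 h (old mice included, to share the estimate of spread) entered 1 fit with a group term. Genes were kept by filterByExpr at a minimum count of 10 and tested with edgeR 4.0.16 (TMM, robust quasi-likelihood F-test, R 4.3.3), with Benjamini-Hochberg adjustment over all genes tested at 0.05. Replicates were taken as separate animals. The effect at 48 h was set against that at 6 h, in old mice and in hippocampus (animal as a block) by interaction terms. Old mice were also included in the fits for hemisphere at 6 h (23 libraries) and hippocampus at 48 h (25 libraries). The same held for the joint fits of both times (48 libraries) and of both regions (50 libraries). 95% intervals came from the fold change and its F statistic. Library totals were compared by exact permutation tests, which over the 70 splits of 4 against 4 cannot go below p = 0.0286. Counting and sampling error only are covered.

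Named genes were those called, the 10 smallest p per direction at a mean of 4 log2 CPM or more without predicted, unnamed or mitochondrial genes, those called at 6 h, a set of always-reported genes, and the tested member with the smallest p per direction in each list. The groups compared and the gene lists were chosen with earlier results of these data known. Alternatives were DESeq2 1.42.0, limma 3.58.1 with voom, other size factors, no filter, the 13 largest gene models left out, young libraries alone, the replicate number as a block, and each library left out in turn. The fitting code was checked on simulated data. The values of 1 gene that the rule names are not reported here.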

Additional observations from a re-analysis of the deposited data

Results flagged for a closer look

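Of 182 groups of 4 values examined with Dixon's ratio at 95% confidence, 12 held a library far from the other 3, and chance gives about 1 in 20.

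Control replicate 2 was the far library in 4 of them. It had 345 CPM of Apoe, against 50.3 to 59.1 CPM in the other controls, and 58.5 CPM of Fkbp5, against 14.0 to 19.1 CPM. It also had 11.1 CPM of AC154912.3, a gene model within the span of Fkbp5, and 236 CPM of H2-K1, against 122 to 129 CPM in the other controls. Surgery libraries had 54.98 to 138 CPM of Apoe and 104.96 to 168 CPM of H2-K1, so the flagged H2-K1 value lay above every surgery library.

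Surgery replicate 1 was the far library for Cdkn1a (18.0 CPM), C4b (10.6 CPM) and, on the low side, Tgm2 (12.9 CPM), a crosslinking enzyme with 23.8 to 24.7 CPM in the other surgery libraries. Control replicate 4 was low for the same gene, with 14.3 CPM. Surgery replicate 4 was high for Per2, a clock gene, with 14.2 CPM, and low for Pgk1, a glycolytic enzyme, with 5.98 CPM. Control replicate 3 was high for Abcg1, a cholesterol exporter, with 38.7 CPM, and control replicate 1 for C3, with 2.36 CPM, a gene of at most a few counts in every library.

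The surgery effect on Gclm differed between 48 h and 6 h by -7.99 log2 units in an interaction test. 2 control libraries at 48 h (33.7 and 120 CPM) and 2 surgery libraries at 6 h (168 and 59.7 CPM) carried that difference.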

How the results depend on the processing

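The count of genes called between surgery and control in young hemisphere at 48 h was 0, and it stayed 0 with limma-voom, other size factors, the largest gene models left out and the young libraries alone. DESeq2 called 3 (Faf1, Gclm and Lyrm9) and the test without a filter on low counts called 1 (Faf1). Leaving out 1 library at a time gave 0 to 1, Faf1 being called without control replicate 1 or control replicate 4. With the replicate number as a block on the 8 young libraries, 1 gene was called, Enpp2. Deviations of same-numbered libraries correlated at 0.203, 0.0735, 0.0711 and -0.0778, and 4 of 8 libraries correlated best with their own number. These values were not set against those of unpaired samples, so they cannot decide whether the numbers pair the samples. For hemisphere minus hippocampus, where 0 genes were called, limma-voom called 2 and the unfiltered test 50, and leaving out 1 animal gave 0 to 1 (Faf1, without control replicate 4). For young minus old, where 0 were called, DESeq2 called 1 and leaving out 1 library gave 0 throughout. For 48 h minus 6 h, where Gclm alone was called, DESeq2 called 3, limma-voom 0, the unfiltered test 0, the 16 young libraries alone 0, and leaving out 1 library gave 0 to 1. The causes were not tested. Of 84 named genes tested, 84 kept the sign of their fold change with DESeq2, no filter, other size factors or the largest models left out, 77 with limma-voom and 73 to 83 when 1 library was left out. With young libraries alone 74 of 74 kept it, and 71 of 74 under the block. The median over all genes stayed between -0.01 and 0.03 in every setting. Depth limits the low genes most, since 1 count is about 0.347 CPM.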

Other observations

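The unfolded protein and integrated stress response had 3 of 11 tested genes with a positive fold change 48 h after surgery and a median of -0.04, with 0 called in edgeR's test. Surgery replicate 1 was the lowest library for 7 of the 11, and without it 7 of 11 were positive and the median was 0.05. Pdia4, a disulfide isomerase of the endoplasmic reticulum, had 12.2, 51.3, 39.4 and 58.7 CPM after surgery, against 29.9, 38.1, 31.9 and 22.3 CPM in controls. Surgery replicate 1 was the lowest of the 8 libraries for Pdia4, and the other 3 surgery libraries lay above every control. Sdf2l1, a chaperone component of the same compartment, had a log2 fold change of -0.37 (-0.93 to 0.19).

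The BCL2 family and cell death list had 7 of 14 positive values, a median of -0.03 and 0 called. Mcl1, which holds apoptosis in check, had 50.3, 40.2, 53.5 and 35.2 CPM after surgery, against 33.1, 35.5, 32.3 and 40.1 CPM in controls (log2 fold change 0.34, -0.17 to 0.85). Bax, which permeabilises mitochondria, had 7.41, 6.59, 11.2 and 7.11 CPM after surgery and 10.2, 12.6, 8.08 and 11.1 CPM in controls (-0.40, -0.92 to 0.12). The groups overlapped for both genes. Adjusted p-values were 1 for each of these 4 genes in edgeR's quasi-likelihood test.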
